A study of Ictalurus furcatus with 16 samples.

Results

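The antioxidant and glutathione enzymes of the blue catfish (*Ictalurus furcatus*) testis were followed across 4 ages. The group was defined by gene name: symbols starting with gpx, prdx, sod1, sod2, sod3, txn, gst, gclc, gclm, gss, gsr or msr, together with cat, nfe2l2a, nqo1, keap1a, keap1b and srxn1. Of 26356 symbols in the count tables, 53 matched, and the 43 with at least 10 counts in at least 4 libraries were kept as members, against 16129 symbols in all that met the same limit. The naming rule and the count limit used no difference between ages, but the members were chosen with earlier results of these data known. Testis RNA of male fish was sequenced in 16 libraries, 4 biological replicates at each of ages 2, 4, 7 and 9. The unit of age is not given in the labels, and no other treatment, genotype or strain is recorded. Age 2 is the submitters' control group.

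Superoxide dismutases turn superoxide into hydrogen peroxide, which catalase, glutathione peroxidases and peroxiredoxins then remove. Glutathione peroxidases draw electrons from glutathione, a tripeptide made by glutamate-cysteine ligase and glutathione synthetase, whereas most peroxiredoxins draw them from thioredoxin, which thioredoxin reductase recharges at the cost of NADPH. Sperm membranes are rich in polyunsaturated lipids that peroxides attack, and the mammalian testis is known for testis-specific forms of several of these enzymes. Nrf2, encoded in fish by nfe2l2 genes, is a transcription factor that drives many of them, and Keap1 holds it back.

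Each library had between 5136717 and 8081160 counts assigned to transcripts, and levels are given as CPM, the count scaled to a common library size (with TMM, the trimmed mean of M-values), without correction for transcript length. The members together took 0.298% ± 0.0484 (SD, n = 4) of assigned counts at age 2. At ages 4, 7 and 9 the shares were 0.352% ± 0.023, 0.282% ± 0.0271 and 0.284% ± 0.0172. Assigned counts include those of ribosomal RNA genes, whose part differed between libraries (given below). These shares are therefore not read as a change with age. Replicate 1 of age 2 stood apart from the other 3 libraries of its age. The summed level of Sertoli cell markers (10 genes in the tables) was 381 CPM there, against 2780 to 7690 CPM in replicates 2 to 4 and 505 to 1690 CPM in the 12 older libraries. Spermatocyte markers (8 genes) summed to 908 CPM in replicate 1, against 126 to 274 CPM in replicates 2 to 4 and 398 to 765 CPM at older ages. Leydig cell markers (5 genes) summed to 276, 604 to 1030 and 218 to 2430 CPM in the same order. Spermatid and sperm tail markers (8 genes) summed to 62.4, 67.7 to 137 and 45.9 to 92.7 CPM. The median log2 fold change of the 5 tested genes of this last list was 2.02, 2.3 and 1.71 at ages 4, 7 and 9 against age 2. Of the listed markers, dmrt1, wt1a and wt1b of Sertoli cells, sycp2 of spermatocytes and ropn1l of spermatids were at 0 in all libraries. Macrophage markers (9 genes) summed to 54.0 to 92.2 CPM at age 2, 74.2 to 203 CPM at age 4, 83.8 to 150.0 CPM at age 7 and 164 to 312 CPM at age 9. Transcripts of ribosomal RNA genes took 38.2% of assigned counts in that replicate, 20.3% to 28.1% in the other libraries of age 2 and 10.9% to 23.5% at older ages. Counts of calls against age 2 are therefore given with and without replicate 1 of age 2. Values of members called in either fit are given for both, for some members only in part. Replicate 1 was singled out after its values were seen, and in Sertoli and spermatocyte markers it was nearer the older libraries than the rest of its age. Leaving out such a library tends to widen differences from age 2 and to lower p. The p of the fit without it are therefore descriptive only. The part of cell makeup or RNA quality in the differences was not tested, and in bulk testis RNA fewer cells of a type and less RNA per cell cannot be told apart.

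The number of members called with all 16 libraries depended on the method, and calls are those of edgeR unless another is named. At ages 4, 7 and 9 against age 2, limma with quality weights called 22, 24 and 22 members. Its shares of all genes were 49.3%, 53.8% and 48.9%. DESeq2 called 10, 11 and 6 members, against 26.7%, 33.2% and 25.5% of all genes. Other fits are given below. At age 4, 5 of 43 members were higher and 1 was lower than at age 2, or 14.0% of members, at an adjusted p of at most 0.05 (edgeR quasi-likelihood test on 15979 genes, Benjamini-Hochberg adjustment), and 18.6% of all tested genes were called (6.66% higher and 12.0% lower). At age 7, 6 members were higher and 3 lower (20.9%), against 27.3% of all genes (11.5% higher and 15.9% lower). At age 9, 2 members were higher and 4 lower (14.0%), against 18.4% of all genes (6.82% higher and 11.5% lower). In both directions together the share of members called was below the background in each comparison. By direction, 11.6%, 14.0% and 4.65% of members were higher at ages 4, 7 and 9, the first 2 above the background and the third below it. The shares of members lower were 2.33%, 6.98% and 9.3%, below it at each age. As 1 of 43 members is 2.33%, several of these shares are near the background, and none of the differences was tested. The members' median log2 fold changes were 0.18, 0.06 and 0.14, in the order of ages 4, 7 and 9. The median of all tested genes was -0.05, -0.08 and -0.03. The 3 comparisons share the age 2 libraries, so their counts are not independent. In all, 13 members passed in at least 1 of them and 30 in none. The thioredoxin gene txn and the thioredoxin-like gene txnl4a were higher at all 3 older ages, and gclc, the catalytic subunit of glutamate-cysteine ligase, was lower at all 3.

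Without replicate 1 of age 2, 16 members were higher and 4 lower at age 4 (46.5%), against 45.7% of all genes (23.3% higher and 22.3% lower). At age 7, 14 members were higher and 7 lower (48.8%), against 47.8% of all genes (24.2% and 23.6%). At age 9, 13 were higher and 5 lower (41.9%), against 42.3% of all genes (21.7% and 20.6%). With the directions summed, these shares were near the background. By direction they were not: 37.2%, 32.6% and 30.2% of members were higher at ages 4, 7 and 9, above the background, and 9.3%, 16.3% and 11.6% were lower, below it. No test was made of these differences in share, and the calls of this fit are descriptive, as replicate 1 was left out because of its values. The number of members that passed in at least 1 comparison was then 25, and 14 passed in all 3. In 34 of 43 members replicate 1 of age 2 lay inside the range of the 12 older libraries. Replicates 2 to 4 of age 2 all lay outside that range in 13 members and all inside it in 14.

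**Figure D1:**
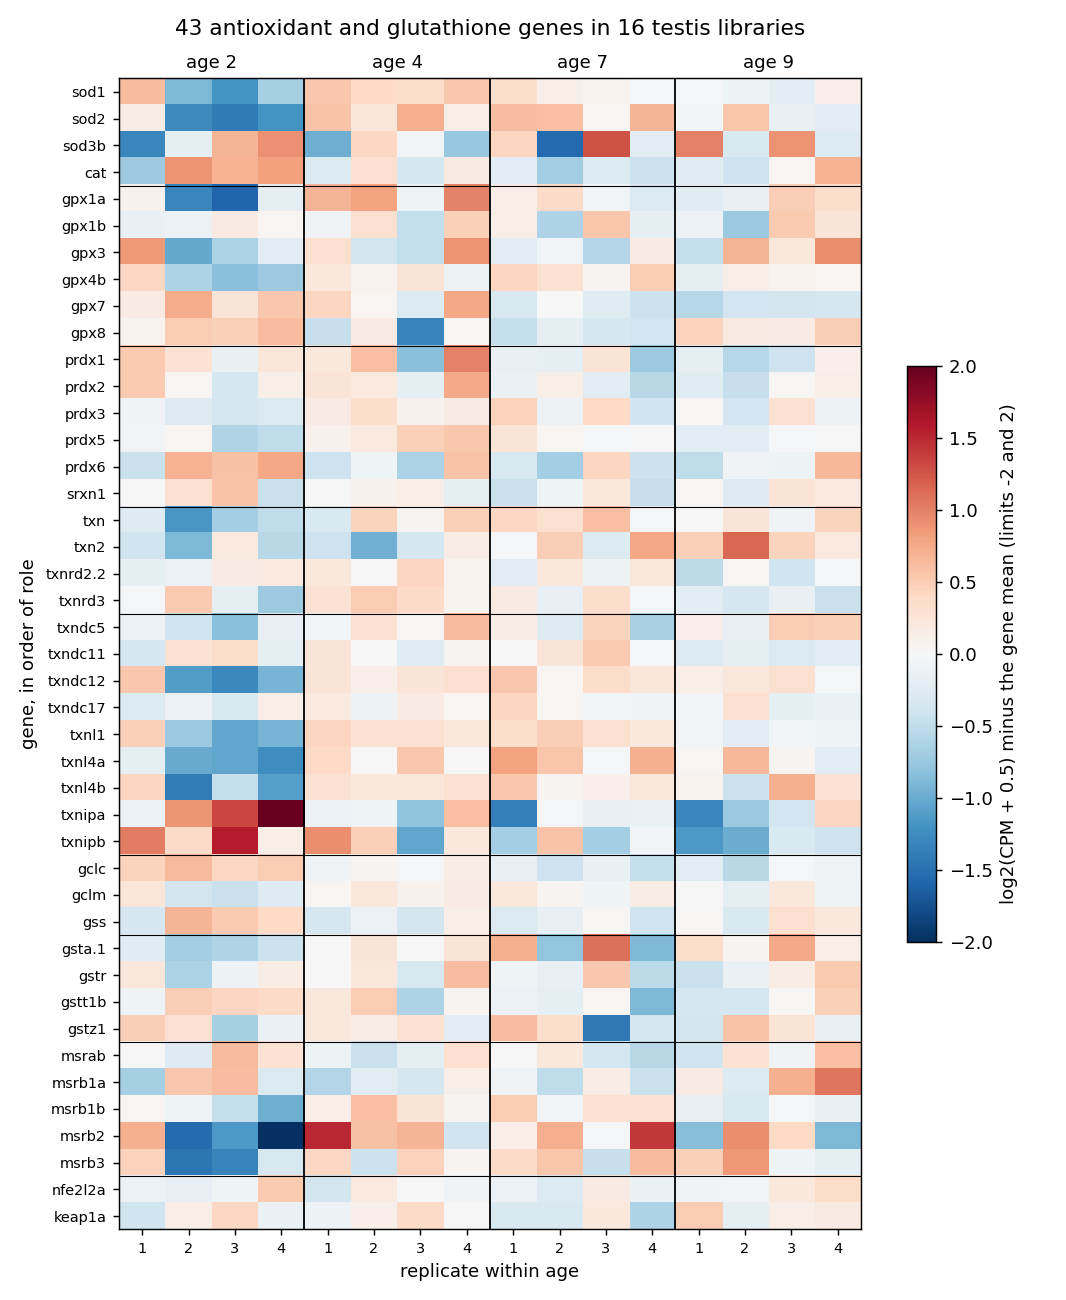
Level of the 43 members (rows, in order of role) in the 16 libraries (columns, replicates 1 to 4 of each age), as log2(CPM + 0.5) minus the gene's mean over all libraries, with colours limited to -2 and 2. In sod1, sod2, txndc12, txnl1 and msrb2 replicates 2 to 4 of age 2 are blue, while replicate 1 of age 2 is red.

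Of the 3 members that make glutathione, 1 was lower at every older age. Gclc was at 177, 203, 173 and 184 CPM in replicates 1 to 4 of age 2, and at 123, 135, 126 and 144 CPM at age 4. It was at 116, 97.1, 117 and 93.3 CPM at age 7 and at 111, 88.0, 127 and 124 CPM at age 9. All 4 libraries of age 2, replicate 1 included, lay above all 12 older libraries. The log2 fold change against age 2 was -0.49 ± 0.16 (SE) at age 4 (edgeR adjusted p = 0.0422), -0.80 ± 0.16 at age 7 (adjusted p = 0.00598) and -0.71 ± 0.16 at age 9 (adjusted p = 0.00974), with 4 libraries per age. At ages 7 and 9 the call held whichever of the 16 libraries was left out. At age 4 it was lost without any single library out of 12, with adjusted p between 0.0528 and 0.116: replicates 2, 3 and 4 of age 2, replicates 1, 2 and 3 of age 4, replicates 1, 2 and 4 of age 7, and replicates 1, 3 and 4 of age 9. The sign was negative in each of these fits. Gclc was again lower at all 3 ages once replicate 1 of age 2 was left out, at -0.43 ± 0.16, -0.73 ± 0.16 and -0.68 ± 0.16 (adjusted p = 0.0339, 0.0013 and 0.00285).

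Its partner gclm, the modifier subunit of the same ligase, did not pass in any comparison with all libraries. Gclm was at 33.0, 21.4, 20.3 and 23.2 CPM at age 2, and between 24.4 and 32.4 CPM in the 12 older libraries. Replicates 2 to 4 of age 2 lay below all older libraries and replicate 1 lay above them. Without replicate 1, gclm was higher at age 4 (log2 fold change 0.56 ± 0.17, edgeR adjusted p = 0.0148) and at age 7 (0.54 ± 0.17, adjusted p = 0.0178), and had 0.40 ± 0.17 at age 9 (adjusted p = 0.075). The ligase's catalytic and modifier subunits thus differed from age 2 in opposite directions at ages 4 and 7 in that fit. Gss, glutathione synthetase, catalyses the second step of the pathway. It was at 119, 241, 217 and 200 CPM at age 2, 120, 139, 117 and 165 CPM at age 4, 124, 135, 153 and 114 CPM at age 7, and 153, 122, 190 and 175 CPM at age 9. The log2 fold change was -0.52 ± 0.22 at age 4 (edgeR adjusted p = 0.0946), -0.56 ± 0.22 at age 7 (adjusted p = 0.0629) and -0.28 ± 0.22 at age 9 (adjusted p = 0.369). Gss was lower without replicate 1 of age 2, at age 4 (-0.62 ± 0.18, adjusted p = 0.00985) and at age 7 (-0.65 ± 0.18, adjusted p = 0.00712).

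**Figure D2:**
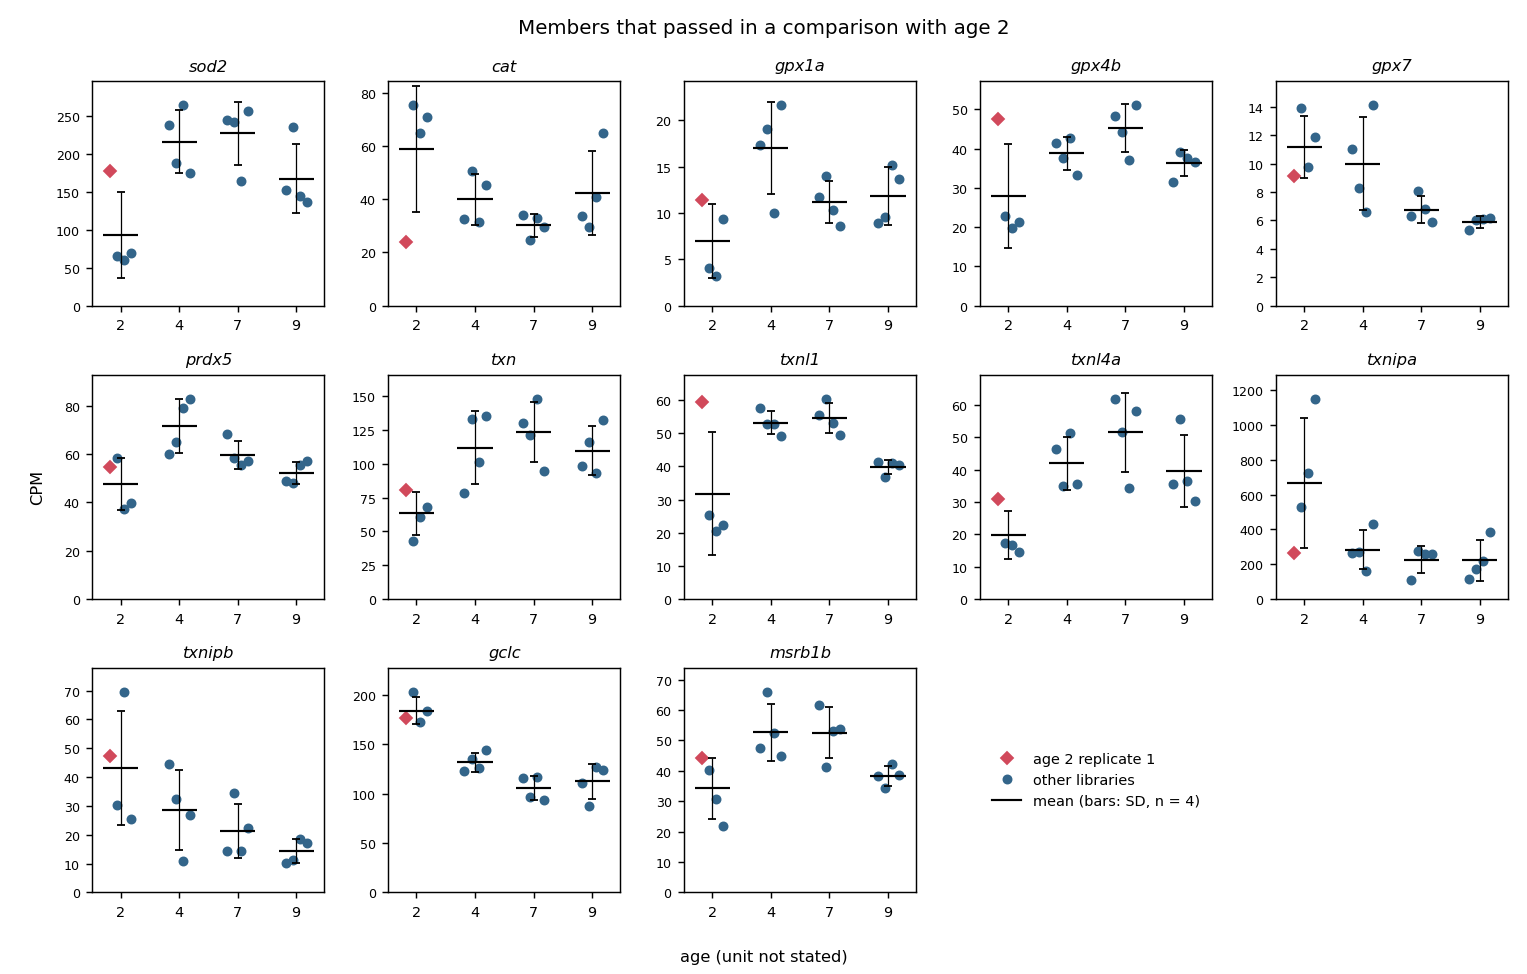
CPM of the 13 members that passed in a comparison with age 2 when all libraries were used, by age, with 1 point per library, the mean as a horizontal line and error bars of 1 SD (n = 4). The red diamond is replicate 1 of age 2. In gclc it sits with the other libraries of age 2, above all 12 older libraries, whereas in sod2, gpx4b and txnl1 it sits at 178, 47.6 and 59.3 CPM, away from the other libraries of age 2.

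The superoxide dismutases of the cytosol and mitochondria were low in replicates 2 to 4 of age 2. Sod2, the mitochondrial manganese enzyme, was at 178, 65.6, 59.7 and 69.6 CPM at age 2 and at 238, 188, 264 and 175 CPM at age 4. At age 7 it was at 245, 242, 165 and 256 CPM, and at age 9 at 153, 235, 144 and 137 CPM. Replicates 2 to 4 of age 2 lay below every older library, and replicate 1 lay among them. Sod2 was higher at age 4 (log2 fold change 1.21 ± 0.32, edgeR adjusted p = 0.0226) and at age 7 (1.29 ± 0.32, adjusted p = 0.0117), and had 0.84 ± 0.32 at age 9 (adjusted p = 0.0719). At age 7 the call held in all 16 fits that left out a library. At age 4 it was lost without replicate 2, 3 or 4 of age 2 or replicate 1 or 3 of age 4 (adjusted p 0.0631 to 0.0798). Without replicate 1 of age 2 the log2 fold changes were 1.81 ± 0.23, 1.90 ± 0.24 and 1.41 ± 0.23, with adjusted p of 3.23e-05, 1.79e-05 and 0.000235.

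Sod1, the cytosolic copper-zinc enzyme, was at 195, 67.0, 54.9 and 78.9 CPM at age 2 and at 183, 166, 162 and 184 CPM at age 4. It was at 160, 137, 132 and 124 CPM at age 7 and at 124, 117, 109 and 135 CPM at age 9. Replicate 1 of age 2 was the highest of the 16 libraries and replicates 2 to 4 were the lowest. With all libraries the log2 fold change was 0.81 ± 0.30 at age 4 (edgeR adjusted p = 0.0631), 0.48 ± 0.30 at age 7 (adjusted p = 0.226) and 0.29 ± 0.29 at age 9 (adjusted p = 0.497). It was higher at all 3 ages without replicate 1 of age 2, by 1.45 ± 0.17, 1.13 ± 0.17 and 0.90 ± 0.16 on the log2 scale, with adjusted p of 1.32e-05, 6.2e-05 and 0.000501. Sod3b, the extracellular form, ranged from 4.89 to 37.9 CPM over the 16 libraries and did not pass at any age with or without replicate 1. Its log2 fold changes with all libraries lay between -0.51 ± 0.57 and 0.22 ± 0.57.

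Catalase, which breaks down hydrogen peroxide in peroxisomes, went the other way from sod2 at age 7. Cat was at 23.9, 75.2, 64.8 and 70.9 CPM at age 2 and at 32.4, 50.5, 31.3 and 45.4 CPM at age 4. It was at 33.9, 24.5, 32.8 and 29.5 CPM at age 7 and at 33.7, 29.7, 40.8 and 65.0 CPM at age 9. Replicate 1 of age 2 was the lowest of all libraries, and replicates 2 to 4 lay above all libraries of ages 4 and 7. Cat was lower at age 7 (log2 fold change -0.96 ± 0.32, edgeR adjusted p = 0.039), and had -0.56 ± 0.32 at age 4 (adjusted p = 0.215) and -0.47 ± 0.32 at age 9 (adjusted p = 0.303). The age 7 call was lost without any single library out of 10, with adjusted p from 0.0508 to 0.115. These were replicates 2, 3 and 4 of age 2, replicate 1 of age 4, all 4 of age 7, and replicates 1 and 3 of age 9. Cat was lower at all 3 ages without replicate 1 of age 2: age 4 (-0.74 ± 0.25, adjusted p = 0.0229), age 7 (-1.13 ± 0.25, adjusted p = 0.0016) and age 9 (-0.68 ± 0.25, adjusted p = 0.0375). Counts for cat, gpx1a and prdx3 may be too low or too high, as each overlaps another gene in RefSeq. The strand setting of the counting is not given in the sources used here.

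Among 6 glutathione peroxidases, 1 was higher at age 4, 1 was higher at age 7 and 1 was lower at age 9. Gpx1a, a copy of the cytosolic enzyme that reduces hydrogen peroxide, was at 11.4, 4.03, 3.21 and 9.36 CPM at age 2 and 17.3, 19, 9.99 and 21.6 CPM at age 4. It was at 11.7, 14.0, 10.3 and 8.64 CPM at age 7 and at 8.89, 9.53, 15.2 and 13.7 CPM at age 9. Of the age 4 libraries, 3 lay above all of age 2, and replicate 3 lay between replicates 4 and 1 of age 2. Gpx1a was higher at age 4 (log2 fold change 1.28 ± 0.38, edgeR adjusted p = 0.0331), and had 0.68 ± 0.38 at age 7 (adjusted p = 0.189) and 0.76 ± 0.38 at age 9 (adjusted p = 0.161). This call was lost without replicate 2, 3 or 4 of age 2 or any library of age 4 (adjusted p 0.0586 to 0.103). Without replicate 1 of age 2 it was higher at all 3 ages (1.69 ± 0.39, 1.1 ± 0.38 and 1.15 ± 0.38, adjusted p = 0.00236, 0.0268 and 0.0244).

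Gpx4b is a copy of the peroxidase that reduces lipid peroxides within membranes and that, in mammals, also forms part of the sperm midpiece. It was at 47.6, 22.8, 19.8 and 21.4 CPM at age 2, 41.5, 37.5, 42.7 and 33.3 CPM at age 4, 48.4, 44.2, 37.0 and 51.0 CPM at age 7, and 31.5, 39.2, 37.7 and 36.7 CPM at age 9. Replicates 2 to 4 of age 2 lay below all older libraries and replicate 1 lay among them. Gpx4b was higher at age 7 (log2 fold change 0.69 ± 0.25, edgeR adjusted p = 0.0493), and had 0.47 ± 0.25 at age 4 (adjusted p = 0.175) and 0.38 ± 0.25 at age 9 (adjusted p = 0.286). This call held in 3 of 16 fits that left out a library, those without replicate 1 of age 2, replicate 4 of age 4 or replicate 3 of age 7. In the other 13 the adjusted p was 0.0517 to 0.147. Without replicate 1 of age 2 the log2 fold changes were 0.93 ± 0.18, 1.17 ± 0.18 and 0.82 ± 0.18, with adjusted p of 0.000638, 9.64e-05 and 0.00192.

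Gpx7 and gpx8 encode peroxidases of the endoplasmic reticulum. Gpx7 was at 9.14, 13.9, 9.76 and 11.9 CPM at age 2, 11, 8.29, 6.61 and 14.1 CPM at age 4, 6.34, 8.04, 6.78 and 5.87 CPM at age 7, and 5.30, 6.05, 6.13 and 6.20 CPM at age 9. All libraries of ages 7 and 9 lay below all of age 2, replicate 1 included. Gpx7 was lower at age 9 (log2 fold change -0.91 ± 0.27, edgeR adjusted p = 0.0294), and had -0.72 ± 0.27 at age 7 (adjusted p = 0.0537) and -0.16 ± 0.26 at age 4 (adjusted p = 0.679). This call was lost without replicate 2, 3 or 4 of age 2 or any library of age 9 (adjusted p 0.0542 to 0.097). With replicate 1 of age 2 left out gpx7 was lower at ages 7 and 9 (-0.72 ± 0.28 and -0.95 ± 0.28, adjusted p = 0.0424 and 0.0124). Gpx8 was at 6.57, 9.04, 8.89 and 9.86 CPM at age 2, 4.4, 7.02, 2.2 and 6.41 CPM at age 4, 4.34, 5.42, 4.78 and 4.66 CPM at age 7, and 8.72, 7.15, 7.05 and 8.98 CPM at age 9. Age 7 lay below age 2 with no overlap, and age 9 overlapped age 2. Its log2 fold change at age 7 was -0.84 ± 0.31 (adjusted p = 0.0574), and -0.86 ± 0.32 without replicate 1 of age 2 (adjusted p = 0.0385). The remaining peroxidases, gpx1b (31 to 76.5 CPM) and gpx3, a secreted form (0.556 to 3.59 CPM), did not pass at any age in either fit.

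Only 1 of the 6 peroxiredoxin and sulfiredoxin genes passed with all libraries. Prdx5, an atypical peroxiredoxin found in mitochondria and peroxisomes, was at 54.8, 58.5, 37.3 and 39.6 CPM at age 2, 59.9, 64.9, 78.9 and 82.9 CPM at age 4, 68.2, 58.3, 55.4 and 57.2 CPM at age 7, and 48.7, 48.2, 55.5 and 57.0 CPM at age 9. Age 4 lay above age 2 and above age 9 with no overlap. Prdx5 was higher at age 4 (log2 fold change 0.59 ± 0.18, edgeR adjusted p = 0.0379), and had 0.33 ± 0.18 at age 7 (adjusted p = 0.183) and 0.14 ± 0.18 at age 9 (adjusted p = 0.614). The call was lost without replicate 2, 3 or 4 of age 2 or replicate 1, 3 or 4 of age 4 (adjusted p 0.0528 to 0.124). With replicate 1 of age 2 left out prdx5 was higher at age 4 (0.74 ± 0.19, adjusted p = 0.00454) and at age 7 (0.49 ± 0.19, adjusted p = 0.0379), and had 0.26 ± 0.18 at age 9 (adjusted p = 0.262). Prdx3, the mitochondrial peroxiredoxin, was at 73.3, 64.9, 61.5 and 63.2 CPM at age 2, 86.6, 98.7, 82.3 and 86.4 CPM at age 4, 107, 72.1, 102 and 58.5 CPM at age 7, and 78.5, 59.2, 95.2 and 72.0 CPM at age 9. Age 4 lay above age 2 with no overlap, and ages 7 and 9 spread over both. Its log2 fold change at age 4 was 0.43 ± 0.20 (adjusted p = 0.131), and 0.56 ± 0.21 without replicate 1 of age 2 (adjusted p = 0.0374).

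Prdx6, which also has phospholipase activity, was at 33.5, 74.8, 69.4 and 79.1 CPM at age 2 and between 28.5 and 72.8 CPM in the older libraries. Its log2 fold change at age 7 was -0.67 ± 0.34 (edgeR adjusted p = 0.148), and -0.81 ± 0.32 without replicate 1 of age 2 (adjusted p = 0.0453). Replicate 1 of age 2 lay far below the other libraries of its age, and no age was apart from age 2. The cytosolic peroxiredoxins prdx1 (37.3 to 134 CPM) and prdx2 (77.2 to 193 CPM) did not pass in either fit, and both had their highest level in replicate 4 of age 4. Srxn1, the sulfiredoxin that repairs overoxidised peroxiredoxins, ranged from 36.1 to 74.2 CPM and had log2 fold changes of -0.15 ± 0.22, -0.33 ± 0.22 and -0.09 ± 0.22 at ages 4, 7 and 9 (adjusted p = 0.649, 0.276 and 0.808).

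Txn, the cytosolic thioredoxin, was the thioredoxin system's only member called with all libraries. It was at 80.9, 43.1, 60.8 and 68.2 CPM at age 2, 78.6, 133, 101 and 135 CPM at age 4, 130, 121, 148 and 94.5 CPM at age 7, and 98.0, 116, 92.8 and 132 CPM at age 9. All libraries of ages 7 and 9 lay above all of age 2, replicate 1 included, and replicate 1 of age 4 lay just below replicate 1 of age 2. Txn was higher at age 4 (log2 fold change 0.82 ± 0.23, edgeR adjusted p = 0.0272), age 7 (0.96 ± 0.23, adjusted p = 0.0102) and age 9 (0.79 ± 0.23, adjusted p = 0.027). The call at age 7 held in all 16 fits that left out a library. At age 4 it was lost without replicate 2, 3 or 4 of age 2 or of age 4 (adjusted p 0.0504 to 0.0856). At age 9 it was lost without replicate 2, 3 or 4 of age 2 or replicate 2 or 4 of age 9 (adjusted p 0.0539 to 0.092). With replicate 1 of age 2 left out txn was higher by 1.03 ± 0.23, 1.19 ± 0.23 and 0.99 ± 0.23 at the 3 ages (adjusted p = 0.00186, 0.000594 and 0.00283).

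Mitochondrial thioredoxin, txn2, was close to the detection floor, at 0.801, 0.417, 1.46 and 0.669 CPM at age 2 and 1.88, 3.30, 1.84 and 1.47 CPM at age 9. This gene has 5 annotated transcripts, and fragments that fit several were not assigned, so its low level is not read as low expression. Age 9 lay above age 2 by a narrow margin, at a log2 fold change of 1.32 ± 0.51 (edgeR adjusted p = 0.0779). Before TMM scaling, 3 counts correspond to between 0.371 and 0.584 CPM in these libraries, whereas the levels given here are TMM-scaled. Of the reductases that recharge thioredoxin, txnrd2.2 ranged from 88.4 to 172 CPM and txnrd3 from 321 to 761 CPM. In mammals Txnrd3 is the thioredoxin and glutathione reductase of the testis. Txnrd3 took between 9.38% and 23.4% of all counts of the members in a library, and txnipa between 3.74% and 33.6%. Txnipa took the larger part in replicates 3 and 4 of age 2. Whether the catfish txnrd3 is particular to testis was not tested. Txnrd3 was at 515, 761, 466 and 321 CPM at age 2, 644, 751, 693 and 553 CPM at age 4, 602, 471, 675 and 522 CPM at age 7, and 452, 417, 475 and 390 CPM at age 9. Age 2 spanned all older libraries, and its log2 fold changes were 0.36 ± 0.22, 0.14 ± 0.22 and -0.25 ± 0.22 at ages 4, 7 and 9 (adjusted p = 0.249, 0.662 and 0.434). Txnrd2.2 had 0.17 ± 0.18, 0.02 ± 0.18 and -0.24 ± 0.18 (adjusted p = 0.511, 0.952 and 0.36).

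Of the 9 proteins with a thioredoxin fold or that bind thioredoxin, 1 was higher at age 4, 2 were higher and 1 lower at age 7, and 1 was higher and 2 lower at age 9. Txnl4a, a small thioredoxin-like protein of the spliceosome that is not known as an antioxidant, was at 30.9, 17.2, 16.8 and 14.5 CPM at age 2 and 46.4, 34.8, 51.3 and 35.5 CPM at age 4. It was at 61.9, 51.7, 34.4 and 58.0 CPM at age 7 and at 35.6, 55.7, 36.5 and 30.2 CPM at age 9. Every library of ages 4 and 7 lay above every library of age 2, and at age 9 only replicate 4 lay below replicate 1 of age 2. Txnl4a was higher at age 4 (log2 fold change 1.08 ± 0.28, edgeR adjusted p = 0.0213), age 7 (1.37 ± 0.28, adjusted p = 0.00669) and age 9 (0.99 ± 0.28, adjusted p = 0.0242). The call at age 7 held in all 16 fits that left out a library. At age 4 it was lost without replicate 2, 3 or 4 of age 2 or replicate 1 or 3 of age 4 (adjusted p 0.0618 to 0.0742), and at age 9 without replicate 2, 3 or 4 of age 2 or replicate 2 of age 9 (adjusted p 0.0762 to 0.0844). With replicate 1 of age 2 left out it was higher by 1.45 ± 0.26, 1.76 ± 0.26 and 1.34 ± 0.26 (adjusted p = 0.000361, 6.86e-05 and 0.000768).

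Txnl1, a thioredoxin-like protein of the proteasome, was at 59.3, 25.4, 20.4 and 22.2 CPM at age 2, 57.7, 52.8, 52.7 and 49.3 CPM at age 4, 55.4, 60.4, 53.2 and 49.4 CPM at age 7, and 41.2, 36.7, 40.9 and 40.3 CPM at age 9. Replicates 2 to 4 of age 2 lay below every older library, and all libraries of age 9 lay below all of ages 4 and 7. It was higher at age 7 (log2 fold change 0.78 ± 0.27, edgeR adjusted p = 0.0431), and this call was lost without replicate 2, 3 or 4 of age 2, any library of age 7 or replicate 4 of age 9 (adjusted p 0.0511 to 0.134). It was higher at ages 4, 7 and 9 without replicate 1 of age 2, by 1.30 ± 0.16, 1.35 ± 0.16 and 0.86 ± 0.16 on the log2 scale (adjusted p = 2.22e-05, 1.27e-05 and 0.000579). Txndc12, a thioredoxin-fold protein of the endoplasmic reticulum, was at 102, 32.0, 28.3 and 36.3 CPM at age 2 and between 68.4 and 102 CPM in all older libraries. It did not pass with all libraries (adjusted p = 0.104, 0.0678 and 0.143) and was higher without replicate 1 of age 2, by 1.43 ± 0.17, 1.51 ± 0.17 and 1.33 ± 0.17 (adjusted p = 1.44e-05, 7.71e-06 and 3.06e-05). In the same fit txnl4b, another spliceosomal relative (1.53 to 8.28 CPM over all libraries), was higher at all 3 ages (1.44 ± 0.35, 1.43 ± 0.35 and 1.37 ± 0.35, adjusted p = 0.00371, 0.00362 and 0.00566). Txndc5, a disulfide isomerase of the endoplasmic reticulum (61.2 to 170 CPM), was higher at ages 4 and 9 in that fit (0.76 ± 0.26 and 0.75 ± 0.26, adjusted p = 0.0276 and 0.0317). Txndc11 (29.7 to 54.9 CPM) and txndc17 (11.8 to 20.2 CPM) passed in neither fit.

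The thioredoxin-interacting proteins bind reduced thioredoxin and, in mammals, restrain glucose uptake. Txnipa was at 263, 527, 723 and 1150 CPM at age 2, 263, 270, 164 and 433 CPM at age 4, 111, 277, 258 and 260 CPM at age 7, and 115, 171, 220 and 385 CPM at age 9. Replicates 2 to 4 of age 2 lay above all 12 older libraries and replicate 1 lay among them. It was lower at age 7 (log2 fold change -1.55 ± 0.45, edgeR adjusted p = 0.0214) and age 9 (-1.58 ± 0.45, adjusted p = 0.0264), and had -1.23 ± 0.45 at age 4 (adjusted p = 0.0619). The call at age 7 was lost without replicate 3 or 4 of age 2 or replicate 1 of age 7 (adjusted p 0.0548 to 0.0958). The call at age 9 was lost without replicate 2, 3 or 4 of age 2 or replicate 1, 2 or 3 of age 9 (adjusted p 0.0508 to 0.0981). Leaving out replicate 1 of age 2, txnipa was lower at all 3 ages, age 4 included (-1.43 ± 0.42, -1.73 ± 0.42 and -1.79 ± 0.42, adjusted p = 0.0113, 0.0033 and 0.00322). Txnipb was at 47.4, 30.4, 69.5 and 25.4 CPM at age 2, 44.5, 32.4, 11 and 26.9 CPM at age 4, 14.3, 34.4, 14.3 and 22.3 CPM at age 7, and 10.1, 11.4, 18.6 and 17.3 CPM at age 9. Age 9 lay below age 2 with no overlap, replicate 1 included. It was lower at age 9 (-1.59 ± 0.43, adjusted p = 0.0205), and this call was lost without replicate 3 of age 2 or replicate 1 or 2 of age 9 (adjusted p 0.0627 to 0.0766). In the fit without replicate 1 of age 2 txnipb was also lower at age 9 (-1.48 ± 0.45, adjusted p = 0.0157) and passed at no other age.

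**Figure D3:**
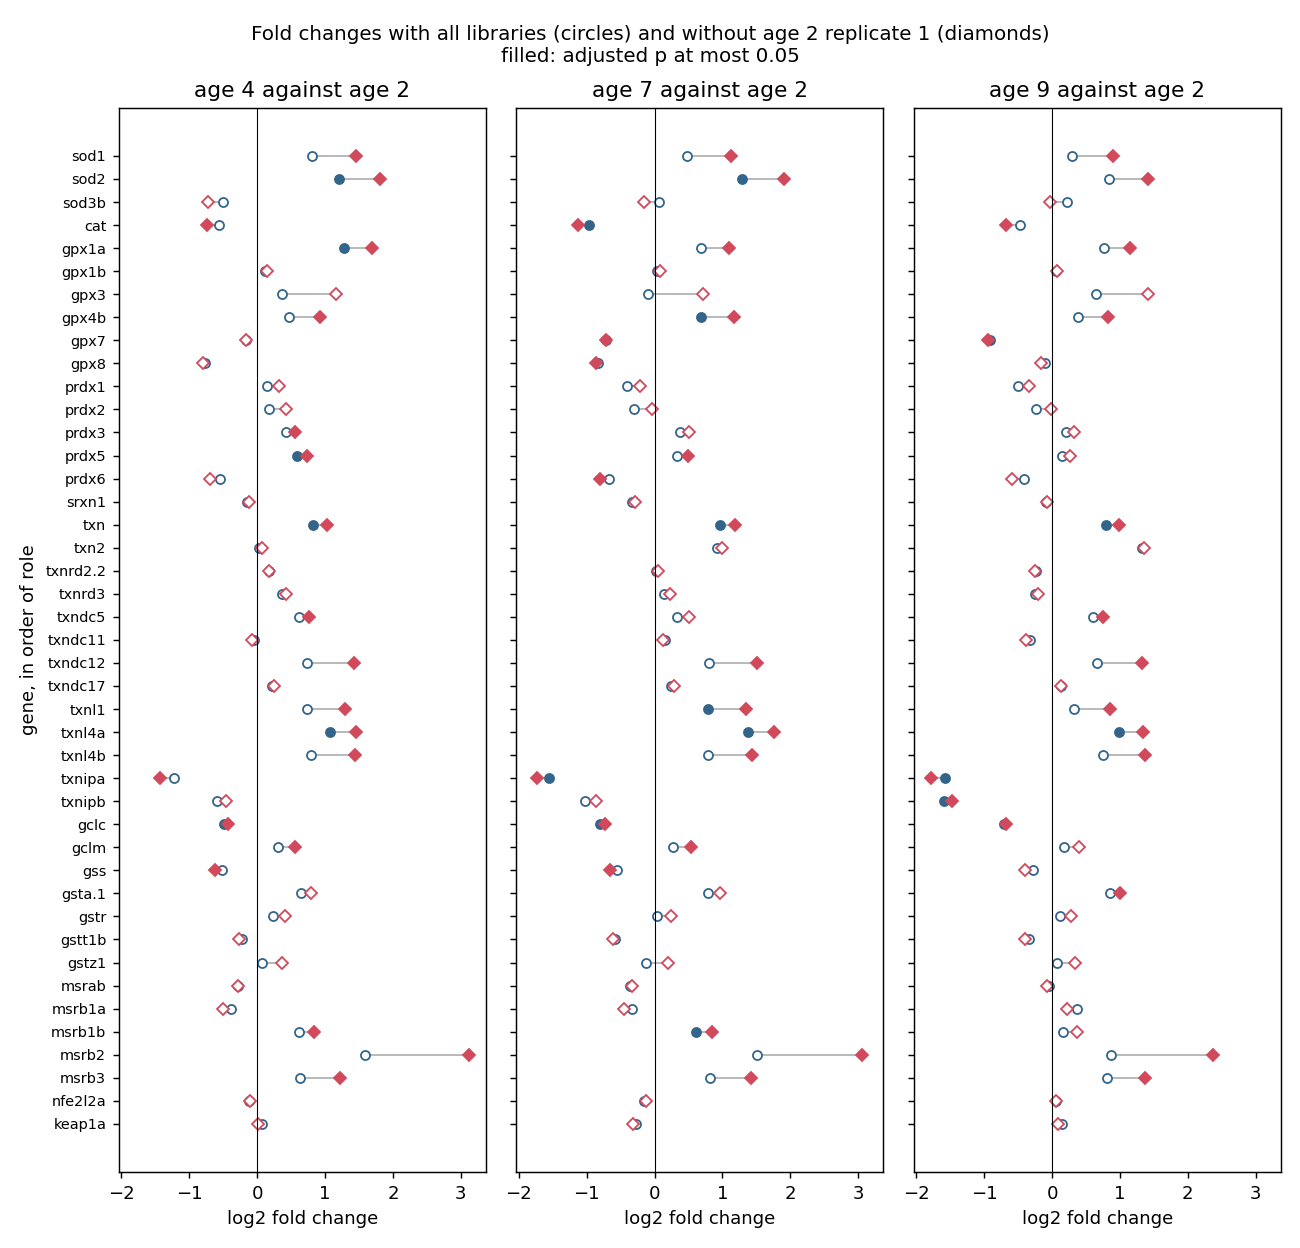
Log2 fold change of each member (rows, in order of role) at ages 4, 7 and 9 against age 2, with all libraries (blue circles) and without replicate 1 of age 2 (red diamonds); filled symbols have an edgeR adjusted p of at most 0.05. Most red symbols of sod1, sod2, gpx4b, txndc12, txnl1 and msrb2 lie farther from 0 than the blue ones, while those of gclc, gpx7, nfe2l2a and keap1a nearly coincide.

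The 4 glutathione transferases, which attach glutathione to electrophiles, did not pass at any age with all libraries. Gsta.1, of the alpha class, was at 20.8, 14.9, 16.0 and 18.1 CPM at age 2, 24.4, 29.6, 24.7 and 29.7 CPM at age 4, 40.4, 14.0, 53.0 and 13.1 CPM at age 7, and 32.0, 25.5, 41.7 and 26.9 CPM at age 9. Ages 4 and 9 lay above age 2 with no overlap, while age 7 was split, with a pair of libraries above and a pair below all of age 2. Its log2 fold change was 0.64 ± 0.37, 0.79 ± 0.37 and 0.85 ± 0.37 (edgeR adjusted p = 0.213, 0.114 and 0.109), and 1.0 ± 0.39 at age 9 without replicate 1 of age 2 (adjusted p = 0.0495). Gstr, of a class found in fish, ranged from 28.2 to 67.8 CPM, the theta-class gstt1b from 23.5 to 63.5 CPM, and the zeta-class gstz1 from 0.308 to 2.84 CPM, with no call in either fit.

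Methionine sulfoxide reductases return oxidised methionine to its reduced form. Of the 5 members, msrb1b was called with all libraries. It was at 44.1, 40.4, 30.9 and 21.7 CPM at age 2, 47.5, 65.9, 52.3 and 44.9 CPM at age 4, 61.7, 41.4, 53.2 and 53.7 CPM at age 7, and 38.3, 34.3, 42.3 and 38.7 CPM at age 9. Age 4 lay above age 2 and above age 9 with no overlap. Msrb1b was higher at age 7 (log2 fold change 0.61 ± 0.22, edgeR adjusted p = 0.0486), and had 0.62 ± 0.22 at age 4 (adjusted p = 0.0585) and 0.16 ± 0.22 at age 9 (adjusted p = 0.62). The call was lost without replicate 2, 3 or 4 of age 2, replicate 1, 3 or 4 of age 7, or replicate 4 of age 9 (adjusted p 0.0552 to 0.123). With replicate 1 of age 2 left out msrb1b was higher at age 4 (0.84 ± 0.21, adjusted p = 0.00505) and age 7 (0.85 ± 0.22, adjusted p = 0.00433), and had 0.36 ± 0.21 at age 9 (adjusted p = 0.185). Msrb2, the mitochondrial form, was at 4.49, 0.556, 0.874 and 0.167 CPM at age 2 and between 1.14 and 8.18 CPM in the older libraries. Replicates 2 to 4 of age 2 had 4, 6 and 1 counts of msrb2, near the floor of 3 counts, so the size of its fold changes is uncertain. With all libraries it did not pass (1.59 ± 0.76, 1.51 ± 0.76 and 0.87 ± 0.77), and without replicate 1 of age 2 it was higher at all 3 ages, by 3.12 ± 0.74, 3.05 ± 0.74 and 2.37 ± 0.75 (adjusted p = 0.00297, 0.00318 and 0.0178). The same was so of msrb3 (5.28 to 28.2 CPM over all libraries), at 1.22 ± 0.39, 1.42 ± 0.39 and 1.37 ± 0.39 without replicate 1 (adjusted p = 0.0172, 0.00711 and 0.0102). Msrab (5.01 to 12.1 CPM) and msrb1a (44.6 to 149 CPM) passed in neither fit.

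Neither of the 2 regulators passed in any comparison with age 2, with or without its replicate 1. Nfe2l2a, encoding Nrf2, was at 43.6, 42, 44.6 and 67.7 CPM at age 2, 36.3, 54.3, 46.8 and 44.7 CPM at age 4, 43.5, 38.8, 53.4 and 42.8 CPM at age 7, and 44.8, 45.6, 54.9 and 61.2 CPM at age 9. All ages overlapped, with log2 fold changes of -0.12 ± 0.20, -0.15 ± 0.20 and 0.06 ± 0.20 (edgeR adjusted p = 0.688, 0.602 and 0.85). Keap1a ranged from 5.70 to 13 CPM, with 0.07 ± 0.27, -0.28 ± 0.27 and 0.15 ± 0.27 (adjusted p = 0.881, 0.459 and 0.721).

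The 10 matching symbols under the count limit were gpx2, gpx4a, gpx9, gstcd, keap1b, nqo1, sod3a, txndc9, txndc15 and txndc16. Keap1b and txndc16 had 0 counts in all libraries. Both have several transcripts, and fragments that fit several were not assigned, so 0 counts set no upper limit on their level. Sod3a, just outside the limit, had 7, 31, 35 and 22 counts at age 2, and between 0 and 9 counts in every older library. Just inside it, gpx3 and txn2 had 10 counts in 7 libraries each. Counts were deposited per transcript, and fragments that fit several transcripts fell in the ambiguous class, 22.8% to 29.4% of all counted. Of the matching symbols with 1 transcript in the tables, 38 of 41 passed the limit (92.7%), and of those with several, 5 of 12 (41.7%), where over all symbols the shares were 73.8% and 40.1%. A low count of a gene with several transcripts was therefore not read as absence. Nor are the levels of cat, gstz1, keap1a, msrb3 and txn2, the members with several transcripts, read as full levels of these genes.

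Between the older ages no member passed. The counts at an edgeR unadjusted p under 0.05 were 0 for age 7 against 4, 7 for age 9 against 4 and 3 for age 9 against 7, and DESeq2 and limma also called 0 members. Of all genes edgeR called 0.0125%, 0.0% and 0.0%, DESeq2 0.0876%, 0.695% and 0.469%, and limma 0.0%, 0.544% and 1.48%. Without replicate 1 of age 2, which enters the shared estimate of the spread, the counts of members were again 0, against 0.0181%, 0.0% and 0.00603% of all genes. Without overlap between the 4 libraries of each age, 2 members differed between ages 4 and 7 (4.65%, against 2.87% of all genes), 8 between ages 4 and 9 (18.6%, against 8.54%) and 3 between ages 7 and 9 (6.98%, against 6.2%). At age 9, gpx7, msrb1b, prdx5, sod1, txnl1 and txnrd3 lay below age 4, and gpx8 and txn2 lay above it. Of these, gpx7 had a log2 fold change of -0.75 ± 0.27 (edgeR adjusted p = 0.414), txnrd3 -0.61 ± 0.22 (adjusted p = 0.431) and sod1 -0.52 ± 0.30 (adjusted p = 0.605). Against age 2, 7 members did not overlap at age 4 (16.3%, against 9.41% of all genes), 5 at age 7 (11.6%, against 15.1%) and 6 at age 9 (14.0%, against 15.1%).

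Members were also compared with each other across the 12 older libraries, where replicate 1 of age 2 plays no part. Of 903 pairs, 6 had a Pearson correlation of log2 CPM with an adjusted p of at most 0.05 (permutation test, 100000 permutations, two-sided, Benjamini-Hochberg over all pairs). The share of pairs of all genes past this limit was not computed, so the count is not read as a trait of the members. Whether differences in cell makeup between libraries contribute to these correlations was not tested. With age means removed all 6 pairs kept the sign of r, but no p is given for those values. Gpx1a and prdx2 varied together, with r = 0.929 (p = 1e-05, the smallest the permutations can give, adjusted p = 0.00903) and Spearman rho = 0.958 (adjusted p = 0.00903). With age means removed r was 0.89, and without the 2 libraries farthest from the median of gpx1a it was 0.923. Gss and msrb1a had r = 0.865 (permutation p = 0.00026, adjusted p = 0.0391) and rho = 0.853 (adjusted p = 0.0656), and 0.784 without the 2 libraries farthest in gss. Gpx7 and prdx2 had r = 0.857 (permutation p = 0.00023, adjusted p = 0.0391) and rho = 0.846 (adjusted p = 0.0656). Without the 2 libraries farthest in gpx7 this r dropped to 0.629, so it rests in part on those. Within ages 4, 7 and 9, with 4 libraries each, r of this pair was 0.96, 0.901 and 0.373.

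Over all 12 libraries gss and sod2 had r = -0.938 (permutation p = 3e-05, adjusted p = 0.0135) and rho = -0.909 (adjusted p = 0.0391), with -0.916 once age means were removed and -0.906 without the 2 libraries farthest in gss. For msrb1a and sod2 r was -0.882 (permutation p = 6e-05, adjusted p = 0.0181) and rho -0.832 (adjusted p = 0.0656), and for gstr and prdx6 r was 0.888 (permutation p = 0.00018, adjusted p = 0.0391) and rho 0.832 (adjusted p = 0.0656). Without the 2 libraries farthest in msrb1a and in gstr these r were -0.825 and 0.806. In these 3 pairs the libraries could be split into clusters, by a gap of 0.343 of the log2 range in sod2 and 0.367 in prdx6, just over the limit of 0.33, which was chosen after the values were seen. Sod2 was at 137 to 188 CPM in 6 older libraries (2 of age 4, 1 of age 7 and 3 of age 9) and at 235 to 264 CPM in the other 6 (2, 3 and 1). Gss was at 139 to 190 CPM in the first cluster and at 114 to 135 CPM in the second, with no overlap. The pairs were picked for their correlation in these same libraries, and the clusters were cut on a gene of each pair. The lack of overlap and the p within clusters are therefore descriptive only, and no conclusion is drawn from them. Within the clusters r between gss and sod2 was -0.758 (exact permutation p = 0.0875, adjusted over 5 such relations 0.146) and -0.53 (exact p = 0.286, adjusted p = 0.357), with 6 libraries in each. Msrb1a and sod2 had r = -0.926 in the cluster of low sod2 (exact permutation p = 0.00556, adjusted p = 0.0278) and 0.0789 in the other (exact p = 0.878, adjusted p = 0.878). Gstr and prdx6 were both high in 3 libraries, 1 of each older age (63.5 to 67.8 and 61.8 to 72.8 CPM), and in the other 9 had r = 0.619 (exact permutation p = 0.0798, adjusted p = 0.146).

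**Figure D4:**
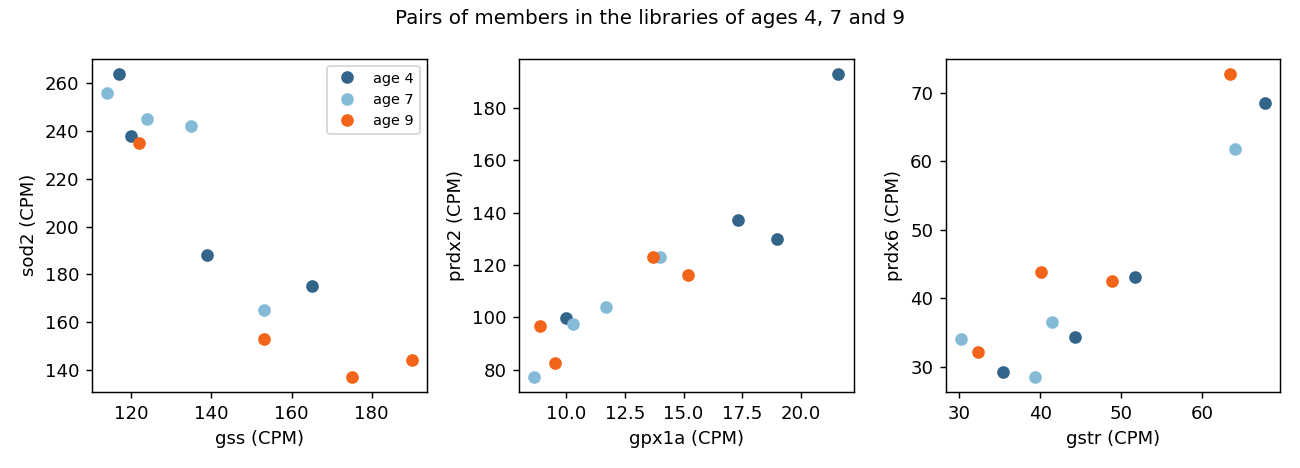
CPM of 3 pairs of members in the 12 libraries of ages 4, 7 and 9, with 1 point per library coloured by age. Left, the libraries with sod2 at 235 to 264 CPM have gss at 114 to 135 CPM and the others have 139 to 190 CPM; centre, gpx1a and prdx2 increase together (r = 0.929); right, 3 libraries have high gstr and prdx6.

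Genes that supply or use glutathione outside the group included enzymes that break it down, which differed from age 2 in opposite directions. Of 25 such genes tested, 2 were higher and 1 lower at age 4, 2 and 1 at age 7, and 1 and 2 at age 9. Leaving out replicate 1 of age 2, these counts were 6 and 4, 6 and 4, and 5 and 3. Of all tested genes, 18.6%, 27.3% and 18.4% were called at ages 4, 7 and 9, and 45.7%, 47.8% and 42.3% without that replicate. Ggt5a, a gamma-glutamyl transferase that cleaves glutathione outside the cell, was at 50.7 ± 29.4 CPM at age 2 and 7.82 ± 3.82, 6.30 ± 3.39 and 8.66 ± 4.90 CPM at ages 4, 7 and 9 (SD, n = 4). It was lower at all 3 (log2 fold change -2.69 ± 0.62, -3.01 ± 0.63 and -2.55 ± 0.61, edgeR adjusted p = 0.0167, 0.00709 and 0.0135). Its level in replicate 1 of age 2 was 7.05 CPM, against 59.4 to 69.0 CPM in replicates 2 to 4. Chac2, which cleaves glutathione inside the cell, was at 107 CPM in replicate 1 and 15.5 to 27.8 CPM in replicates 2 to 4. It was higher at age 4 (1.41 ± 0.44, edgeR adjusted p = 0.0391) and age 7 (1.28 ± 0.44, adjusted p = 0.0422), and had 1.16 ± 0.44 at age 9 (adjusted p = 0.0753). Without that replicate chac2 was higher at all 3 ages (2.4, 2.29 and 2.12, adjusted p = 1.46e-05, 1.53e-05 and 4.6e-05). Abcc4, an exporter of organic anions, was listed at 0 in replicates 2 to 4 of age 2 and at 0.481 CPM in replicate 1, and was higher at age 7, at 2.0 ± 1.12 CPM (SD, n = 4, edgeR adjusted p = 0.014). Clic1, of the transferase fold, was higher at age 4 (1.40 ± 0.37, adjusted p = 0.0227) and age 9 (1.29 ± 0.37, adjusted p = 0.026). Eef1g, an elongation factor with a transferase domain, was lower at age 9 (-0.87 ± 0.25, adjusted p = 0.0259). The list's median log2 fold change was 0.20, 0.16 and 0.10 at ages 4, 7 and 9, and 0.35, 0.41 and 0.26 without replicate 1 of age 2.

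A list of 16 genes drawn up for NADPH supply included folate enzymes, not all of which make NADPH. On it 1 gene was higher and 1 lower at age 4, 2 and 4 at age 7, and 1 and 4 at age 9. The calls are not read as a change in NADPH supply. The counts without replicate 1 of age 2 were 4 and 4, 5 and 4, and 3 and 4. The shares of all tested genes called were 18.6%, 27.3% and 18.4%, and 45.7%, 47.8% and 42.3% without that replicate. The lower genes at ages 7 and 9 were the folate enzymes aldh1l2, mthfd1b, mthfd1l and mthfd2, the last named here to complete the count. Mitochondrial mthfd1l was at 70.4 ± 3.64 CPM at age 2, 40.3 ± 3.91 CPM at age 7 and 39.5 ± 6.25 CPM at age 9 (-0.81 ± 0.20, edgeR adjusted p = 0.0129, and -0.83 ± 0.21, adjusted p = 0.0146), and replicate 1 of age 2, at 68.4 CPM, was with the others of its age. Mthfd1b, its cytosolic relative, had -1.37 ± 0.35 at age 7 (adjusted p = 0.0134) and -1.54 ± 0.35 at age 9 (adjusted p = 0.0111), with 34.3 CPM in replicate 1 of age 2 and 51.5 to 108 CPM in replicates 2 to 4. Aldh1l2 was lower at all 3 ages (-0.79 ± 0.21, -1.01 ± 0.21 and -0.95 ± 0.21, adjusted p = 0.0236, 0.00709 and 0.00994). Pgls, of the pentose phosphate pathway, was higher at age 7 (24.8 ± 11.2 against 8.96 ± 1.30 CPM, 1.47 ± 0.38, adjusted p = 0.0135) and age 9 (1.2 ± 0.38, adjusted p = 0.038). Nadkb was higher at age 4 (1.42 ± 0.42, edgeR adjusted p = 0.0322) and me3 at age 7 (0.52 ± 0.17, adjusted p = 0.0374). The median of the list was 0.17, -0.23 and -0.19, and 0.37, 0.05 and 0.08 without replicate 1 of age 2, so its sign turned at ages 7 and 9.

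Of 18 Nrf2 regulators and targets outside the group, 2 were higher and 2 lower at age 4, 2 and 3 at age 7, and 2 and 2 at age 9. With replicate 1 of age 2 left out they were 5 and 4, 6 and 4, and 4 and 3. Among all tested genes 18.6%, 27.3% and 18.4% were called, and 45.7%, 47.8% and 42.3% with that replicate left out. Cul3b, a cullin of the ligase that degrades Nrf2, was higher at all 3 ages (1.57 ± 0.49, 1.94 ± 0.50 and 1.85 ± 0.50, edgeR adjusted p = 0.0391, 0.0135 and 0.0209), with 86.7 CPM in replicate 1 of age 2 and 12.1 to 22.7 CPM in replicates 2 to 4. Slc40a1, the iron exporter ferroportin, was lower at all 3 (-0.93 ± 0.24, -0.93 ± 0.24 and -0.88 ± 0.24, adjusted p = 0.0224, 0.0141 and 0.023), with 306 to 491 CPM in replicates 2 to 4 of age 2 and less in its replicate 1. Nfe2l1a, a relative of Nrf2, was lower at ages 7 and 9 (-1.04 ± 0.28 and -1.0 ± 0.28, adjusted p = 0.0158 and 0.024), with 21.2 CPM in replicate 1 of age 2 and 44.3 to 57.2 CPM in replicates 2 to 4. Blvrb, a biliverdin reductase, was higher at ages 7 and 9 (0.71 ± 0.22 and 0.84 ± 0.22, adjusted p = 0.0296 and 0.0205). The list's median was -0.24, -0.12 and -0.01, and -0.27, -0.16 and 0.01 without replicate 1 of age 2.

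Thiol and selenium helpers gave 4 higher and 2 lower of 29 at age 4, 7 and 2 at age 7, and 4 and 3 at age 9. Leaving out replicate 1 of age 2 gave 11 and 2, 12 and 2, and 8 and 4. The background over all tested genes was 18.6%, 27.3% and 18.4% called, and 45.7%, 47.8% and 42.3% without that replicate. The selenoprotein selenot2 was higher at all 3 ages (1.18 ± 0.28, 1.56 ± 0.28 and 0.98 ± 0.28, edgeR adjusted p = 0.0175, 0.00539 and 0.0262), with 68.3 CPM in replicate 1 of age 2 and 22.7 to 29.4 CPM in replicates 2 to 4. Qsox1, a secreted sulfhydryl oxidase, was lower at all 3 (-2.29 ± 0.49, -2.49 ± 0.49 and -2.15 ± 0.49, adjusted p = 0.0153, 0.00616 and 0.0105), with 14.1 CPM in that replicate and 52.7 to 67.7 CPM in the others of its age. Selenoi, which makes phosphatidylethanolamine, was higher at all 3 (1.33 ± 0.28, 1.36 ± 0.28 and 1.09 ± 0.28, adjusted p = 0.0149, 0.00675 and 0.0167), with 82.7 CPM in replicate 1 and 30.6 to 43.8 CPM in the others. Selenok, of the endoplasmic reticulum, was also higher at all 3 (1.30 ± 0.34, 1.44 ± 0.34 and 1.16 ± 0.34, adjusted p = 0.0229, 0.0102 and 0.03), with 37.8 CPM in replicate 1 and 12.4 to 13.7 CPM in the others. The median of the list was 0.36, 0.27 and 0.23, and 0.49, 0.55 and 0.27 without replicate 1 of age 2.

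Oxidant sources had 0 higher and 2 lower of 14 at age 4, 1 and 4 at age 7, and 2 and 4 at age 9, with medians of 0.12, 0.09 and -0.49. In the fit without replicate 1 of age 2 they were 2 and 5, 3 and 6, and 3 and 4, with medians of -0.10, -0.13 and -0.63, so the sign of the median turned at ages 4 and 7. Calls over all tested genes were 18.6%, 27.3% and 18.4%, and 45.7%, 47.8% and 42.3% in the fit without that replicate. Nox1, a superoxide-producing NADPH oxidase, was higher at age 7 (0.87 ± 0.31, edgeR adjusted p = 0.0463) and at age 9, at 34.7 ± 9.23 CPM against 9.17 ± 2.98 CPM at age 2 (1.92 ± 0.31, adjusted p = 0.00315). Its level in replicate 1 of age 2 was 12.8 CPM, against 6.41 to 10.4 CPM in replicates 2 to 4, and all 4 lay below the mean of age 7. Xdh, xanthine dehydrogenase, was lower at all 3 ages (-1.98 ± 0.55, -2.45 ± 0.56 and -2.29 ± 0.56, adjusted p = 0.0267, 0.00906 and 0.0142), as was nos1, a nitric oxide synthase (-2.33 ± 0.61, -2.33 ± 0.61 and -2.45 ± 0.61, adjusted p = 0.0224, 0.0143 and 0.0159). Duox2, a dual oxidase that makes hydrogen peroxide, was lower at ages 7 and 9 (-2.29 ± 0.57 and -2.33 ± 0.57, adjusted p = 0.0116 and 0.0142). In these 3, replicate 1 of age 2 was low, at 1.92, 4.81 and 0.801 CPM, against 8.36 to 19.3, 45.8 to 67.5 and 6.12 to 6.95 CPM in replicates 2 to 4.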

How the data were processed

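Per the labels' protocols, RNA was purified with Quick-RNA (Zymo) columns and turned into sequencing libraries using NEBNext Ultra II reagents. The submitters' processing notes name STAR 2.7.5 and HTSeq 0.11.1 among the software, with edgeR 4.4.2. What each did, with which strand setting and genome build, is not given in the sources used here. Raw counts per transcript were deposited by the authors (50072 transcripts and 5 summary lines per library). The summary lines, 65.2% to 76.2% of all counted fragments, were left out. Gene overlaps and biotypes come from RefSeq annotation of assembly Billie_1.0, which holds 48916 of the transcripts.

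Counts were summed per symbol and fitted with edgeR 4.0.16 (filterByExpr, TMM, robust quasi-likelihood, a model by age over all 16 libraries), with p adjusted over all 15979 tested genes, which included all 43 members. The SE is the log2 fold change divided by the square root of the F statistic. The procedure was also run on simulated data, but no outcome is given, so nothing about these libraries is concluded from that run. Replicates are biological, per the labels, and no pair of libraries of the same age was a duplicate (chi-square per degree of freedom 10.13 to 118.24). Pairs of libraries from different ages were not checked in this way. Every symbol found by the naming rule is accounted for. Members past the threshold with all libraries are given by library, and the other members by library or by range. Each other pathway list is given by the 4 genes with the smallest p in any comparison with age 2. Chac2, mthfd2, nadkb and me3 were named beyond these, to complete the counts with all libraries in the glutathione and NADPH lists. The other lists hold further called genes that are not named. Members and lists were chosen with earlier results of these data known, so the counts and medians of the lists are descriptive. Pairs of members were compared by Pearson and Spearman correlation of log2 CPM. A cluster is a gap over 0.33 of the range with at least 3 libraries on each side, a rule chosen after the values were seen. Alternatives were DESeq2 1.42.0, limma 3.58.1 with voom and quality weights, DESeq2 size factors, no count filter, the 2 ages alone, the replicate block, the top transcript per gene, and leaving out each library. No symbol txnrd1, gsr, prdx4, gstp1 or msra was among the 53 matches of the naming rule, so no gene was analysed under these names. Msrab was a member.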

Additional observations from a re-analysis of the deposited data

Results flagged for a closer look

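Within an age of 4 libraries, 10 of 172 groups (43 members at 4 ages) had a library far from the other 3, or 5.81%, where chance gives about 1 in 20. Of these, 6 were replicate 1 of age 2, in each case above the others of its age. There gpx4b was at 47.6 CPM (others 19.8 to 22.8), msrb2 at 4.49 CPM (0.167 to 0.874), sod2 at 178 CPM (59.7 to 69.6), txndc12 at 102 CPM (28.3 to 36.3), txnl1 at 59.3 CPM (20.4 to 25.4) and txnl4a at 30.9 CPM (14.5 to 17.2). Nfe2l2a was at 67.7 CPM in replicate 4 of age 2, against 42 to 44.6 CPM in the others. Sod2 was at 165 CPM in replicate 3 of age 7 (others 242 to 256 CPM) and at 235 CPM in replicate 2 of age 9 (others 137 to 153 CPM). Txnipa was at 111 CPM in replicate 1 of age 7, against 258 to 277 CPM in the others.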

How the results depend on the processing

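Leaving out each library in turn, the number of members past the threshold ranged from 0 to 20 at age 4, 4 to 21 at age 7 and 1 to 18 at age 9 against age 2 (6, 9 and 6 with all libraries). The share of all genes called moved with it, from 0.00605% to 45.7%, 12.0% to 47.8% and 7.12% to 42.3%. Each highest count came without replicate 1 of age 2. The count at age 4 was 0 without replicate 2, 3 or 4 of age 2 or replicate 3 of age 4, 1 without replicate 1 and 3 without replicate 2 of age 4. At age 7 it was 5 without replicate 2 of age 2, and 4 without replicate 3 or 4 of age 2 or replicate 1 of age 7. At age 9 it was 2, 1 and 2 without replicates 2, 3 and 4 of age 2, and 3 and 1 without replicates 1 and 2 of age 9. The 3 comparisons between older ages gave 0 in every fit. At ages 4, 7 and 9, limma with quality weights gave 22, 24 and 22 members (49.3%, 53.8% and 48.9% of all genes), and the 2 ages alone gave 0, 1 and 1 (0.0%, 5.44% and 6.62%). DESeq2 gave 10 at age 4 (26.7%), and no filter gave 5 at age 7 (16.8%). No member called against age 2 changed the sign of its fold change under any of these alternatives. The balance of calls did change at age 9: 2 members were higher and 4 lower with all libraries, 13 and 5 without replicate 1 of age 2, and 14 and 8 with limma. The causes were not tested. Replicate numbers were not treated as pairs. The same-number correlation of deviations was -0.22 to 0.412, median 0.044, over 24 pairs. For different numbers it was -0.361 to 0.376, median -0.009, over 72 pairs. The value of 0.412 was that of replicate 1 of ages 4 and 2. Whether some libraries of the same number shared a batch was not tested. With the replicate block the counts were 7, 8 and 6.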

Other observations

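The catalase gene has 2 transcripts in the tables. In replicate 2 of age 4 the second of them was at 34.3 CPM and the first at 16.2 CPM. In the other libraries the second, at 1.70 to 16.5 CPM, was below the first, at 20.3 to 67.6 CPM. This library was singled out after its values were seen, and with counts of the top transcript alone catalase did not pass at age 7 (edgeR adjusted p = 0.0845).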
